A study of Mus musculus with 24 samples.

Results

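The genes described here are 41 genes of the cell cycle and of DNA replication, measured by RNA-seq in the duodenum of male mice that lack Cyp27b1, the enzyme that makes the hormone 1,25-dihydroxyvitamin D3 (1,25D). They were chosen by name, as familiar genes of these processes, and are 41 of the 25410 gene symbols in the expression tables. By role they comprise 9 genes of origin licensing and the replicative helicase, 5 of nucleotide supply and the replication fork, 9 cyclins and cyclin-dependent kinases, 13 of mitosis and chromosome segregation, 3 transcription factors and 2 inhibitors of the kinases. All Cyp27b1 null mice were weaned at 3 weeks onto a purified diet without vitamin D and were studied at 8 weeks of age. The rescue diet supplied 2% calcium and 1.25% phosphorus together with 20% lactose. In the normal diet calcium was 0.47% and phosphorus 0.3%, without the added lactose. On each diet mice received an intraperitoneal injection of 1,25D (2 ng per g body weight) or of vehicle, and the duodenum was taken 6 h later. This gave 4 groups of 6 libraries, called rescue 1,25D, rescue vehicle, normal 1,25D and normal vehicle. The series contains no mouse with intact Cyp27b1, so each difference is between mutant animals. The deposited description gives 12 mice per diet and 8 mice per group injected, and it does not tie the 6 libraries of a group to animals. The p-values therefore measure the spread between libraries, which may be partly technical.

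The intestinal epithelium is renewed by division of stem cells and of transit-amplifying cells in the crypts, whose daughters leave the cycle as they move onto the villus and become absorptive or secretory cells. In a dividing cell, licensing factors load the MCM helicase onto replication origins before S phase, the fork enzymes copy the DNA, and cyclin-bound kinases then drive entry into mitosis. E2F factors switch on many of the replication genes, and the later mitotic genes are controlled largely through the CHR promoter element and Foxm1. In bulk tissue, fewer dividing cells and less RNA per dividing cell cannot be told apart.

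Expression is given in RPKM (reads per kilobase of transcript scaled to the mapped reads), as the authors deposited it. Differences were tested with limma on log2(RPKM + 0.5) over 20006 genes, with Benjamini-Hochberg adjustment over all of them and a threshold of 0.05. All fold changes below are on that log2 scale, where the pseudocount shrinks the differences of weakly expressed genes. The hormone treatment was seen in every treated library: Cyp24a1, the enzyme that degrades 1,25D and a direct target of its receptor, averaged 473.4 ± 299.4 RPKM in rescue 1,25D and 0.284 ± 0.285 RPKM in rescue vehicle duodenum, and 723.5 ± 218.9 RPKM in normal 1,25D and 1.078 ± 1.465 RPKM in normal vehicle duodenum (SD, n = 6 each). Relative depth, estimated from the smallest values, differed 2.71-fold between the deepest library (normal vehicle replicate 6) and the shallowest (rescue 1,25D replicate 4). Absolute depth is unknown. Normal vehicle replicate 6 also held the largest share of exocrine pancreas transcripts, at 7.38% of its summed RPKM for 18 marker genes, and the medians of the groups were 0.242% in rescue 1,25D, 0.247% in rescue vehicle, 0.159% in normal 1,25D and 1.38% in normal vehicle libraries. Where leaving this library out changed a call or moved a group median by over 1.5 times, the value without it is given too.

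All 41 genes passed the filter for low values, and none was at 0 in any library. The highest mean levels over the 24 libraries belonged to Mki67, the proliferation antigen Ki-67, at 83.6 RPKM, and Top2a, the topoisomerase that untangles replicated chromosomes, at 81.6 RPKM. Ccna2 (cyclin A2) averaged 51.7 RPKM, Ccnd2 (cyclin D2) 45.2 RPKM and Pcna, the sliding clamp of the replication fork, 40.7 RPKM. The lowest levels were those of Cdc6, which loads the helicase, at 2.90 RPKM, Foxm1 at 2.82 RPKM, Ccne1 (cyclin E1) at 2.56 RPKM and E2f1 at 1.17 RPKM. The helicase subunits lay between these ends. The ratio of the highest to the lowest library lay between 2.59 and 7.51 over the 41 genes, and was largest for Rrm2, the small subunit of ribonucleotide reductase. The SD of log2 values within a group had a median of 0.39 over the 41 genes, against 0.35 over all genes tested. Normal vehicle replicate 6 was the lowest of all libraries for 22 of the 41 genes, and rescue 1,25D replicate 5 the highest for 13.

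None of the 41 genes passed the test in any of the 7 comparisons. Of all genes tested, 1.84% passed for 1,25D against vehicle on the normal diet, 0.145% on the rescue diet and 1.28% over both diets. For the rescue against the normal diet, 0% passed under vehicle, 0.01% after 1,25D and 0% over both injections, and 0.005% passed the test of diet dependence of the 1,25D effect. At an unadjusted p under 0.05, the numbers among the 41 genes were 5 for 1,25D on the normal diet, 0 on the rescue diet and 5 over both diets. They were 7 for the rescue diet under vehicle, 17 after 1,25D, 27 over both injections and 0 for diet dependence. Over all genes the numbers at that level were 2393, 966, 1956, 1437, 1676, 1900 and 1371 in the same order. The precision was such that the 95% interval of the difference stayed within 2-fold in either direction for 37 of the 41 genes for 1,25D on the normal diet, 39 on the rescue diet, 37 for diet under vehicle and 32 for diet after 1,25D. A missed threshold does not show that the groups were alike.

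The first question was whether a 6 h exposure to 1,25D altered these genes in mice on the normal diet. The fitted changes of the 41 genes had a median of -0.06, against 0.05 for all genes tested. The medians of the licensing and of the mitosis genes lay on opposite sides of 0. The median of the 41 genes was -0.16 when normal vehicle replicate 6 was left out, -0.16 when replicate 3 of that group was and 0.01 when its replicate 1 was. The 9 licensing and helicase genes had a median of 0.34, with 8 of 9 above 0. The 13 mitosis genes had a median of -0.35, with 13 of 13 below 0. Nucleotide supply and fork genes had a median of 0.07, and cyclins and kinases one of -0.06. The transcription factors were at 0.12 and the kinase inhibitors at 0.19. A list of 41 other replication genes, outside the 41 described here, had a median of 0.04. Over all genes tested, 58.8% were above 0.

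**Figure D1:**
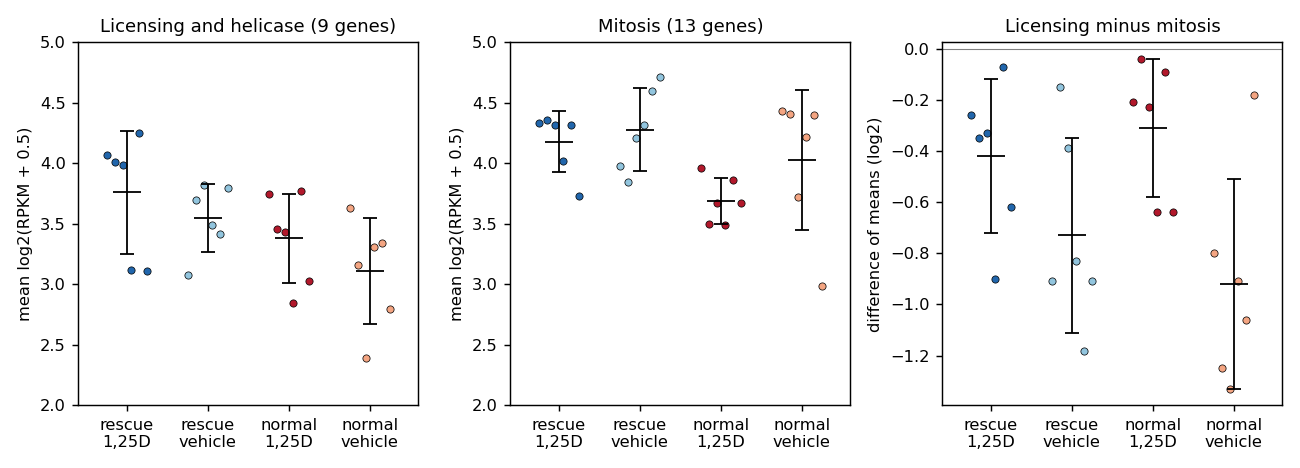
Mean log2(RPKM + 0.5) per library (vertical axes of the left and middle panels) for 9 licensing and helicase genes and 13 mitosis genes, and the difference between these means in log2 units (right panel). Each point is a library, and the long bar with whiskers is the mean with SD (n = 6). In the right panel 5 normal vehicle libraries, from -1.33 to -0.80, lie below all normal 1,25D libraries, and normal vehicle replicate 6 stands apart at -0.18.

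Mcm6, a subunit of the ring-shaped MCM helicase that unwinds DNA at the fork, had the smallest adjusted p of the 41 genes for 1,25D on the normal diet. It lay between 22.3 and 36.2 RPKM (median 32.0) in normal 1,25D libraries and between 12.6 and 31.3 RPKM (median 22.0) in normal vehicle libraries. All 6 treated libraries were above the vehicle median, but the groups overlapped. The fitted change was 0.53 (SE 0.21), or 1.44-fold, with an adjusted p of 0.264. Of the other helicase subunits, Mcm3 was at 0.45 (SE 0.29), Mcm5 at 0.43 (SE 0.27), Mcm4 at 0.34 (SE 0.23), Mcm2 at 0.20 (SE 0.29) and Mcm7 at 0.16 (SE 0.19). Cdc6, which recruits the helicase to origins, was at 0.42 (SE 0.28). Its partner in loading, Cdt1, was the licensing gene below 0, at -0.12 (SE 0.17), and Gins1, a part of the active helicase, was at 0.07 (SE 0.22). None of these 8 passed the test, and their adjusted p-values in limma lay between 0.616 and 0.99.

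Ccnd2, the cyclin that carries growth signals into the early cell cycle, had the next smallest p. It lay between 29.1 and 64.9 RPKM (median 53.4) in normal 1,25D libraries and between 22.9 and 46.1 RPKM (median 29.0) in normal vehicle libraries. All but 1 treated library were above every vehicle library, since normal 1,25D replicate 4, at 29.1 RPKM, lay far below its group. The change was 0.65 (SE 0.28), or 1.56-fold, with an adjusted p of 0.308. Ccnd1, the related cyclin D1, was at 0.29 (SE 0.33), Ccne1 at 0.21 (SE 0.24) and the kinases Cdk2 and Cdk4 at -0.06 and -0.03 (SE 0.20 each).

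Genes of the later cycle had lower fitted values after 1,25D on the normal diet. Cenpe, a motor protein that carries chromosomes along spindle microtubules, lay between 5.40 and 7.95 RPKM (median 7.45) in normal 1,25D libraries and between 3.57 and 15.9 RPKM (median 12.1) in normal vehicle libraries. The treated libraries were tightly grouped, 5 vehicle libraries lay at 10.1 RPKM or more, and normal vehicle replicate 6 lay below every treated library. The change was -0.52 (SE 0.24; adjusted p 0.388). Ccna2, the cyclin of S phase and early mitosis, lay between 30.8 and 50.1 RPKM (median 36.5) in normal 1,25D and between 27.3 and 72.1 RPKM (median 57.5) in normal vehicle libraries, a change of -0.41 (SE 0.19; adjusted p 0.384). Foxm1 lay between 1.46 and 2.12 RPKM (median 1.80) in normal 1,25D and between 1.65 and 3.51 RPKM (median 2.60) in normal vehicle libraries, a change of -0.37 (SE 0.18; adjusted p 0.411). The groups overlapped for all 3 genes. Mki67 lay between 47.7 and 81.6 RPKM (median 63.9) in normal 1,25D and between 38.9 and 111.4 RPKM (median 89.9) in normal vehicle libraries, a change of -0.30 (SE 0.23; adjusted p 0.743). Pcna was at 0.33 (SE 0.19; adjusted p 0.556) in this comparison. Mki67 was at -0.51 (adjusted p 0.261) and Pcna at 0.19 (adjusted p 0.781) without normal vehicle replicate 6.

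**Figure D2:**
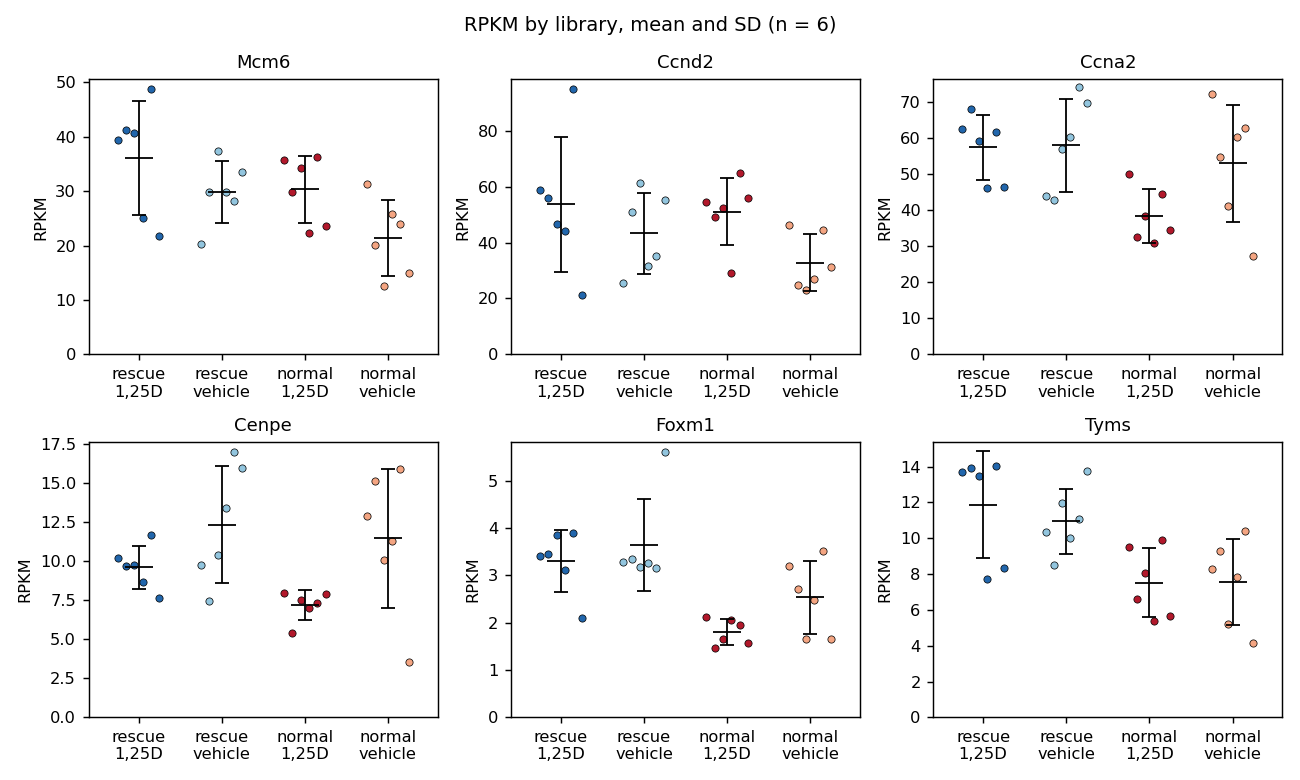
RPKM of 6 genes in every library (points) by group, with the mean and SD (n = 6) as bars. The groups overlap within each diet for every gene shown. Cenpe in normal vehicle replicate 6, at 3.57 RPKM, and Ccnd2 in normal 1,25D replicate 4, at 29.1 RPKM, lie below the other libraries of their groups.

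The mitotic result depended on normal vehicle replicate 6. Without it, the median of the 13 mitosis genes was -0.55, and 3 of them passed the test: Cenpe at -0.81 (adjusted p 0.0126), Kif11, the motor that separates the spindle poles, at -0.63 (adjusted p 0.0332), and Cenpa, the centromere-specific histone, at -0.67 (adjusted p 0.0452). Of all genes tested in that fit, 1.99% passed. With array weights, which give less weight to libraries that deviate from their group over all genes, Cenpe alone of the 41 genes passed, at -0.76 (adjusted p 0.0229), as did 2.37% of all genes. The licensing genes had a median of 0.27 in the same fit, and of 0.19 without normal vehicle replicate 3. Within each library the mean log2 level of the licensing genes minus that of the mitosis genes was also computed, a difference chosen after the values had been seen. It was between -0.64 and -0.04 in normal 1,25D libraries (mean -0.31 ± 0.27) and between -1.33 and -0.18 in normal vehicle libraries (mean -0.92 ± 0.41; SD, n = 6 each). The value of -0.18 was that of normal vehicle replicate 6, and the 5 other vehicle libraries, at -0.80 or lower, lay below every normal 1,25D library. On the rescue diet the same difference was between -0.90 and -0.07 in 1,25D libraries (mean -0.42 ± 0.30) and between -1.18 and -0.15 in vehicle libraries (mean -0.73 ± 0.38), with overlap.

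Marker genes of other cell states were read from the same libraries. The summed level of 14 markers of differentiated enterocytes lay between 6428.5 and 12419.1 RPKM (median 9048.9) in normal 1,25D libraries. In normal vehicle libraries it lay between 2463.1 and 5850.6 RPKM (median 4422.9), without overlap. Of the 14, 4 passed the test as higher after 1,25D, where 1.84% of all genes passed in either direction. The summed level of 13 crypt stem cell markers lay between 365.2 and 620.6 RPKM (median 509.9) in normal 1,25D libraries. In normal vehicle libraries it lay between 443.8 and 970.6 RPKM (median 795.4). Of the 13, 11 had fitted changes below 0, and none passed the test (smallest adjusted p 0.0903). Markers of general epithelium were close in the 2 groups, with medians of 1865.7 RPKM in normal 1,25D and 1788.6 RPKM in normal vehicle libraries for 10 genes. The 12 lymphocyte markers had medians of 182.8 and 177.4 RPKM, and the 10 smooth muscle markers of 189.6 and 245.2 RPKM. The 18 exocrine pancreas markers had a median change of -3.53, with none past the test. No marker of these lists was at 0 in all 6 libraries of any group. Their part in the values of the cell cycle genes was not tested.

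The promoters of licensing and mitosis genes are shown because these roles lay on opposite sides of 0. Promoter sequences of 300 bases, from 250 before to 50 after the transcription start, were taken from RefSeq (build GRCm38.p6), while the reads had been aligned to mm9. Of the 41 genes, 32 matched, with 34 promoters; Ccna2, Ccnd1, Ccnd2, Mcm4, Gins1, Aurkb, Kif20a, Foxm1 and Myc were not in the promoter table used here. The words searched on both strands were TTTCCCGC, TTTGGCGC, TTTCGCGC and TTTGCCGC for E2F, and TTTGAA and TTCGAA for the CHR element, with overlapping matches counted. An E2F word was present in 6 of 8 licensing promoters and 0 of 11 mitosis promoters, against 2.26% of all 32851 promoters. A CHR word was present in 2 of 8 licensing promoters and 9 of 11 mitosis promoters, against 19.2% of all promoters. CCAAT, the box bound by NF-Y, was present in 6 of 8 and 10 of 11, against 37.4%. The 8 licensing promoters belonged to 7 genes. Among the 5 promoters of nucleotide supply and fork genes, 0 held an E2F word and 0 a CHR word. Among the 6 promoters of cyclins and kinases, 2 held an E2F word and 2 a CHR word. These matches are descriptions of letters in a window, not binding sites, and the 5 promoters below were picked after the matches were seen. Capitals mark E2F words in Mcm6 and Cdc6, CHR words in Kif11 and Mki67, and both in Cdk1, the kinase that triggers mitosis, whose promoter held both kinds. The sequences run 5′ to 3′ on the strand of the gene: Mcm6 at chr1:128359656-128359955 (minus strand), Cdc6 at chr11:98907901-98908200 (plus), Kif11 at chr19:37376132-37376431 (plus), Mki67 at chr7:135716330-135716629 (minus) and Cdk1 at chr10:69352863-69353162 (minus).
Mcm6: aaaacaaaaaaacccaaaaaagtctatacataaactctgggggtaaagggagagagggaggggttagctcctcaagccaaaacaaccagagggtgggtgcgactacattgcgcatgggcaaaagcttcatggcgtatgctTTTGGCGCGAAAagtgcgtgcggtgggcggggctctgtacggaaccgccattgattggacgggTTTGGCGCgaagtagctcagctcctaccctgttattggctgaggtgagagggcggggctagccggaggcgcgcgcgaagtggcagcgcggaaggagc
Cdc6: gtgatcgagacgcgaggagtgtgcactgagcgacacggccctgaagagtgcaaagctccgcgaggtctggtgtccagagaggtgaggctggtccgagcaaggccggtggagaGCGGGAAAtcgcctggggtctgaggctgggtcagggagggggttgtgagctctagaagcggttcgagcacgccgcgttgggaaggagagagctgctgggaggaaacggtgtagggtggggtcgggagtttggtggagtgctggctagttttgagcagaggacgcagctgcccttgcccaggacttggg
Kif11: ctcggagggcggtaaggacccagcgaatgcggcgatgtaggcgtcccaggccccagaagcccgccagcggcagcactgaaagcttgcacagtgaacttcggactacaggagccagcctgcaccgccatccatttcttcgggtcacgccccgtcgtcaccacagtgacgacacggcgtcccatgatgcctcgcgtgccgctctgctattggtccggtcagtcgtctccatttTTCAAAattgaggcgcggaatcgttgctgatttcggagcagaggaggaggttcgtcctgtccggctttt
Mki67: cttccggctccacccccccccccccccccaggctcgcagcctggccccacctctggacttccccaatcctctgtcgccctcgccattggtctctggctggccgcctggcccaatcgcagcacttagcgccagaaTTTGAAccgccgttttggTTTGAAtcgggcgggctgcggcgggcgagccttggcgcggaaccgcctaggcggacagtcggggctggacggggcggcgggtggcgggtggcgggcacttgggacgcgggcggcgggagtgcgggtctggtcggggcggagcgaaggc
Cdk1: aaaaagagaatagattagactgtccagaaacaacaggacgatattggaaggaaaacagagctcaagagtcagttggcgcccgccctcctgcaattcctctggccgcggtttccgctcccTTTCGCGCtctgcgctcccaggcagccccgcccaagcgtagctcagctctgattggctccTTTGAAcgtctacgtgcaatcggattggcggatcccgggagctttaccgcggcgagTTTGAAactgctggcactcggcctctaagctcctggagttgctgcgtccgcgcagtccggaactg

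On the rescue diet, 1,25D was set against vehicle in the same way. The 41 genes had a median change of 0.00, against 0.06 for all genes tested, and 60.9% of all genes were above 0. The licensing genes had a median of 0.22, with 8 of 9 above 0, and the mitosis genes a median of -0.09, with 12 of 13 below 0. In the same comparison 11 of 13 crypt stem cell markers were below 0 (median -0.29), as were 13 of 14 enterocyte markers (median -0.49), with none of either list past the test. Their part in these values was not tested. With single libraries left out, the licensing median was lowest, at 0.12, without rescue 1,25D replicate 5, and highest, at 0.37, without rescue 1,25D replicate 6. The mitosis median was -0.17 without rescue vehicle replicate 2 and 0.01 without rescue 1,25D replicate 6. Cdc6 had the smallest p of the 41 genes. It lay between 1.85 and 6.00 RPKM (median 4.52) in rescue 1,25D and between 1.27 and 3.73 RPKM (median 2.85) in rescue vehicle libraries, and the groups overlapped. Its change was 0.50 (SE 0.28; adjusted p 0.878). Ccnd1 lay between 9.59 and 44.2 RPKM (median 33.7) in rescue 1,25D and between 9.66 and 27.4 RPKM (median 18.6) in rescue vehicle libraries, a change of 0.56 (SE 0.33; adjusted p 0.878). E2f1, a driver of replication genes, was at 0.31 (SE 0.23), and Cdkn1b, the kinase inhibitor p27, was at -0.27 (SE 0.17). On this diet Mcm6 was at 0.24 (SE 0.21), Pcna at 0.04 (SE 0.19) and Mki67 at -0.13 (SE 0.23).

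**Figure D3:**
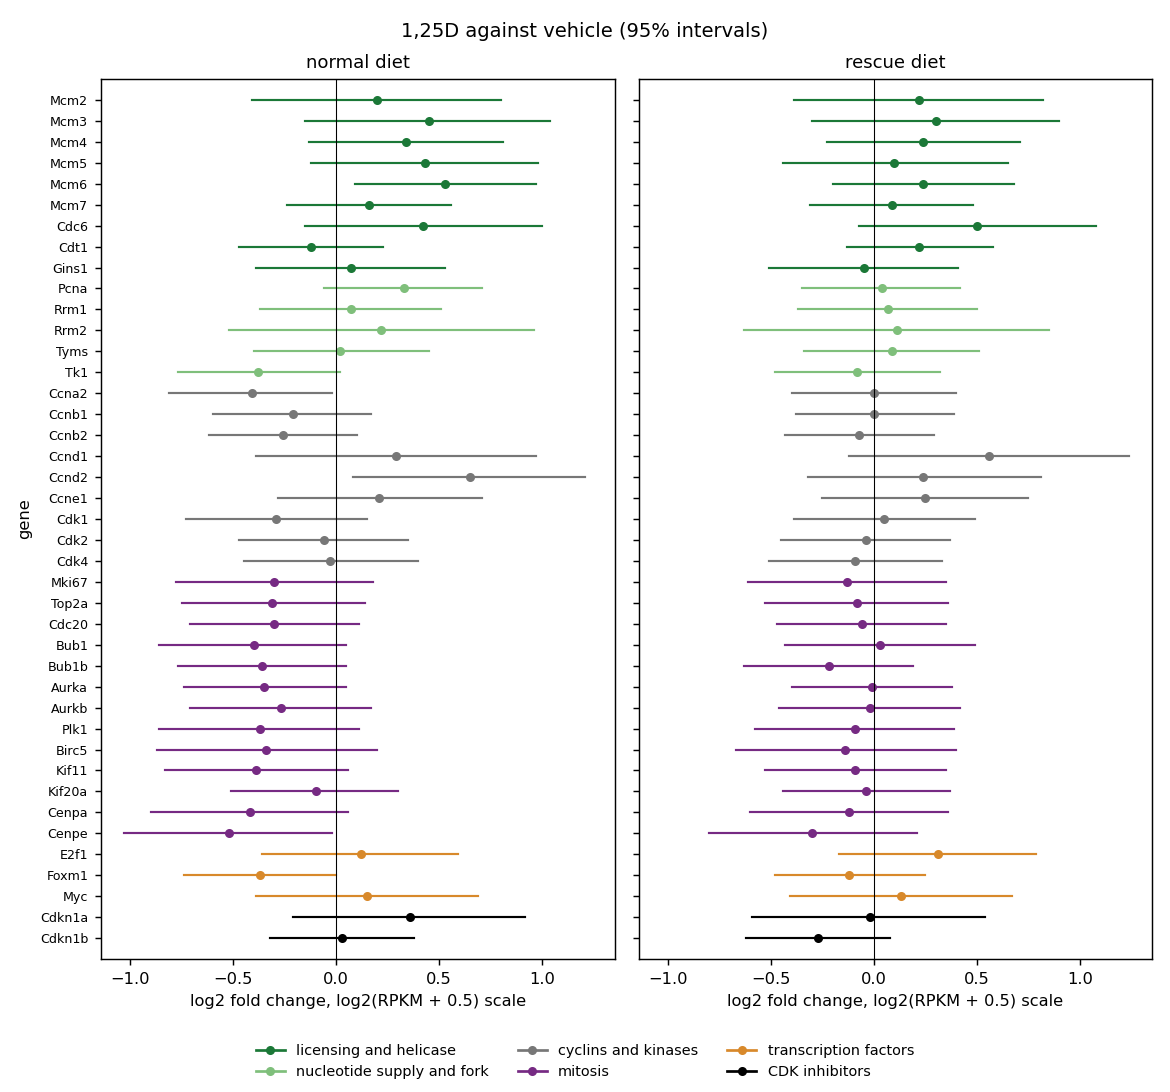
Fitted difference of 1,25D minus vehicle on the log2(RPKM + 0.5) scale (horizontal axis) for each of the 41 genes, on the normal diet (left) and the rescue diet (right), with 95% intervals; colours give the role. On the normal diet the 13 mitosis genes lie left of 0 and 8 of 9 licensing genes right of it, and no gene passed the test.

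Whether the 1,25D effect differed between the diets was tested directly as an interaction. The median over the 41 genes was 0.14, against 0.01 for all genes tested. The smallest p was that of Ccna2, at 0.41 (SE 0.27; adjusted p 0.9), and Cdt1, Bub1, a spindle checkpoint kinase, and Aurka, the spindle pole kinase Aurora A, were at 0.34 (SE 0.24), 0.43 (SE 0.31) and 0.34 (SE 0.27). The licensing genes had a median of -0.10 and the mitosis genes of 0.24. The medians were 0.26 for the 41 genes, -0.02 for licensing and 0.46 for mitosis without normal vehicle replicate 6, with Bub1 at 0.65 (adjusted p 0.522) and Aurka at 0.52 (adjusted p 0.573). Without normal vehicle replicate 1 the medians of the 41 genes and of mitosis were 0.03 and 0.15, and that of licensing was 0.05 without normal vehicle replicate 3. Averaged over both diets, 1,25D gave a median of -0.06 for the 41 genes and 0.07 for all genes. The licensing genes were then 9 of 9 above 0 (median 0.27) and the mitosis genes 13 of 13 below 0 (median -0.22), while 65.8% of all genes were above 0. The median of the 41 genes was -0.10 without normal vehicle replicate 6, and that of licensing 0.17 without normal vehicle replicate 3. Mcm6 was at 0.39 (SE 0.15; adjusted p 0.333), Cdc6 at 0.46 (SE 0.20; adjusted p 0.403), Ccnd2 at 0.44 (SE 0.19; adjusted p 0.425) and Cenpe at -0.41 (SE 0.17; adjusted p 0.395). Without normal vehicle replicate 6, Cenpe alone passed over both diets, at -0.55 (adjusted p 0.012), as did 1.81% of all genes. With array weights it passed at -0.51 (adjusted p 0.0248), as did 2.35% of all genes.

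The rescue diet was then set against the normal diet. After 1,25D, 37 of the 41 genes were fitted above 0 on the rescue diet, with a median of 0.43, against 0.12 and 70.7% above 0 for all genes tested. This comparison shares the normal 1,25D libraries with that of 1,25D on the normal diet. Foxm1, the factor that drives mitotic genes, had the smallest p. It lay between 2.09 and 3.88 RPKM (median 3.42) in rescue 1,25D and between 1.46 and 2.12 RPKM (median 1.80) in normal 1,25D libraries. Of the rescue libraries, 5 were above every normal library, and rescue 1,25D replicate 6, at 2.09 RPKM, lay within the normal range. The difference was 0.71 (SE 0.18), or 1.64-fold, with an adjusted p of 0.267. Bub1 lay between 5.56 and 12.4 RPKM (median 9.88) in rescue 1,25D and between 4.41 and 6.61 RPKM (median 5.12) in normal 1,25D libraries, a difference of 0.79 (SE 0.22; adjusted p 0.354). Tyms, which makes thymidylate for DNA, lay between 7.70 and 14.0 RPKM (median 13.6) in rescue 1,25D and between 5.39 and 9.93 RPKM (median 7.33) in normal 1,25D libraries, a difference of 0.62 (SE 0.21; adjusted p 0.447). Ccna2 was at 0.58 (SE 0.19; adjusted p 0.447), Mki67 at 0.43 (SE 0.23; adjusted p 0.645) and Ccnd1 at 0.25 (SE 0.33; adjusted p 0.831).

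The mitosis genes had a median of 0.47 in this comparison, with 13 of 13 above 0. For Kif11, rescue 1,25D libraries lay between 26.4 and 37.8 RPKM and normal 1,25D libraries between 20.4 and 24.7 RPKM, so that the groups did not overlap. The same held for Aurkb, the Aurora B kinase that corrects chromosome attachment, at 7.02 to 11.7 RPKM and 5.55 to 6.78 RPKM, and for Kif20a, a kinesin of cell division, at 5.68 to 7.96 RPKM and 4.10 to 5.61 RPKM. Kif11 was at 0.52 (SE 0.22; adjusted p 0.535), Aurkb at 0.60 (SE 0.21; adjusted p 0.48) and Kif20a at 0.44 (SE 0.20; adjusted p 0.556). Of all genes tested, 0.54% had every rescue library above every normal library. These calls depended on how the libraries were weighted. With array weights, 19 of the 41 genes passed as higher on the rescue diet, while 6.43% of all genes passed in either direction. Among the 19 were Bub1 at 0.91 (adjusted p 0.00263), Foxm1 at 0.79 (adjusted p 0.00301), Ccna2 at 0.68 (adjusted p 0.00922) and Mki67 at 0.55 (adjusted p 0.0432). The lowest weights were those of normal vehicle replicate 6, at 0.182, and of rescue 1,25D replicates 6 and 5, at 0.448 and 0.491. The mean log2 level of the mitosis genes was 3.73 in rescue 1,25D replicate 6 and 4.32 in its replicate 5. It was 4.02 in replicate 4, which had a weight of 0.686, and the group median was 4.32. In this comparison the crypt stem cell markers had medians of 654.2 RPKM in rescue 1,25D and 509.9 RPKM in normal 1,25D libraries, the enterocyte markers of 4180.2 and 9048.9 RPKM, and 10 smooth muscle markers of 363.7 and 189.6 RPKM. None of these 3 lists had a gene past the test here, and their part in the values of the mitosis genes was not tested.

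**Figure D4:**
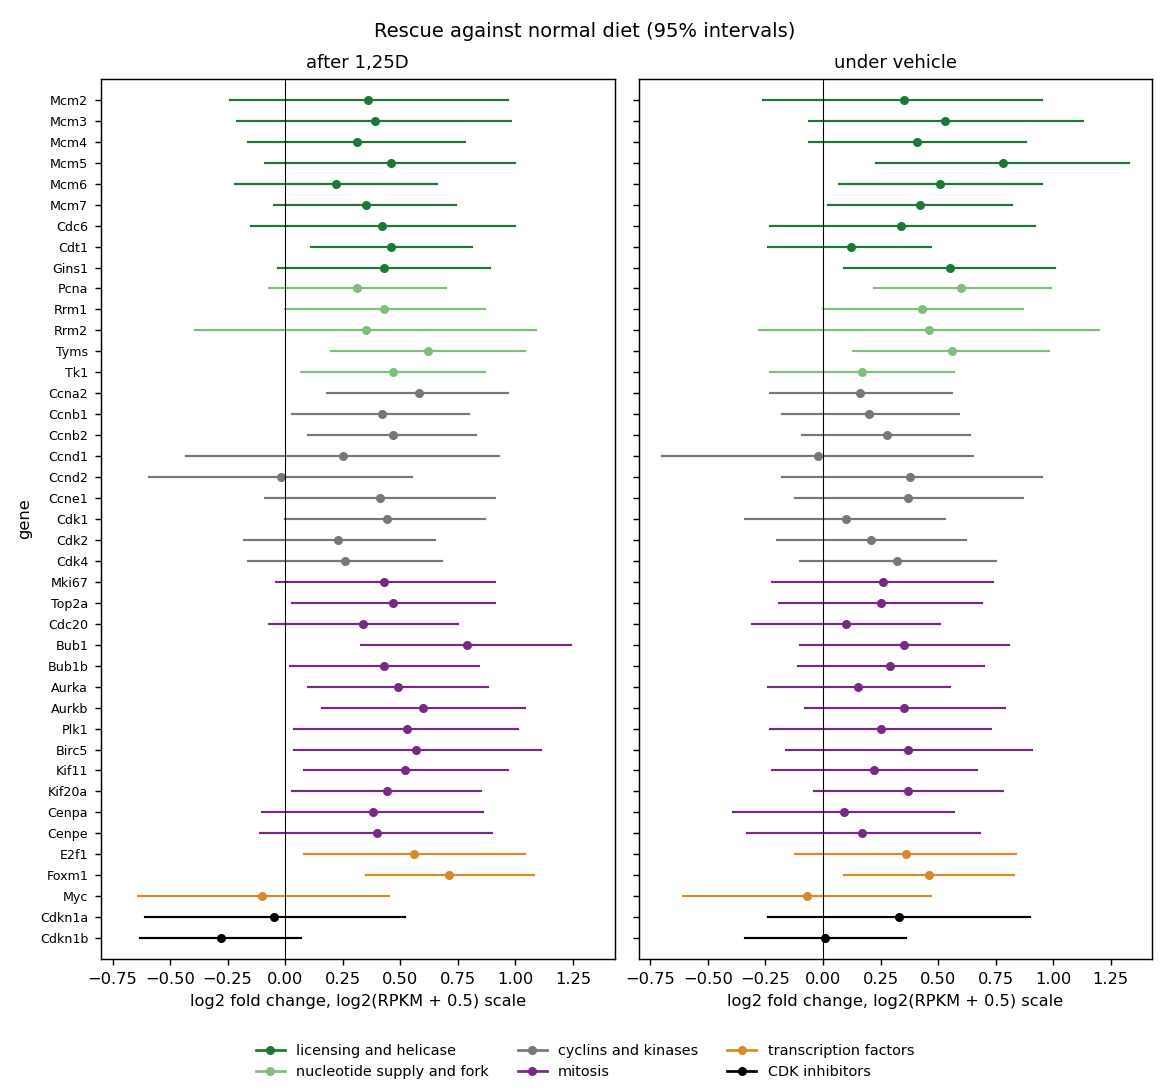
Fitted difference of rescue minus normal diet on the log2(RPKM + 0.5) scale (horizontal axis) for each of the 41 genes, after 1,25D (left) and under vehicle (right), with 95% intervals; colours give the role. The differences lie right of 0 for 37 genes after 1,25D and for 39 under vehicle, and no gene passed the test.

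Under vehicle, in a comparison that shares the normal vehicle libraries with that of 1,25D on the normal diet, 39 of the 41 genes were above 0 on the rescue diet, with a median of 0.33, against 0.10 and 68.9% above 0 for all genes tested. Pcna had the smallest p. It lay between 33.0 and 58.9 RPKM (median 45.8) in rescue vehicle and between 18.2 and 37.7 RPKM (median 34.1) in normal vehicle libraries, and 5 of the 6 rescue libraries were above every normal one. The difference was 0.60 (SE 0.19), or 1.52-fold, with an adjusted p of 0.567. Mcm5 lay between 8.39 and 15.3 RPKM (median 12.1) in rescue vehicle and between 3.13 and 10.8 RPKM (median 8.06) in normal vehicle libraries, a difference of 0.78 (SE 0.27; adjusted p 0.58). Tyms was at 0.56 (SE 0.21; adjusted p 0.618) and Foxm1 at 0.46 (SE 0.18; adjusted p 0.625). Mki67 was at 0.26 (SE 0.23) and Ccnd1 at -0.02 (SE 0.33). The licensing genes had a median of 0.42 and the mitosis genes of 0.25. Without normal vehicle replicate 6, the median over the 41 genes was 0.16 and that of the mitosis genes was 0.06. Some genes then fell below 0. Aurka, Ccna2 and Cenpe were at -0.03, -0.01 and -0.12, against 0.15, 0.16 and 0.17 with all libraries. In the comparison with all libraries, 14 of 14 enterocyte markers were above 0 (median 0.46) and 18 of 18 exocrine pancreas markers below 0 (median -3.22). Of the 13 crypt stem cell markers, 8 were above 0 (median 0.03). No gene of these lists passed the test, and their part in these values was not tested.

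Over both injections, the diet difference had a median of 0.37 over the 41 genes, with 39 above 0, against 0.10 and 76.7% above 0 for all genes tested. Foxm1 was at 0.59 (SE 0.13), or 1.50-fold, and its adjusted p of 0.289 was shared by Tyms at 0.59 (SE 0.15). Bub1 was at 0.57 (SE 0.16) and Pcna at 0.46 (SE 0.13), both with an adjusted p of 0.317. The 5 genes of nucleotide supply and the fork had a median of 0.43, and the cyclins and kinases one of 0.29. The 13 crypt stem cell markers had a median of 0.13, and their part in these values was not tested. Without normal vehicle replicate 6, Foxm1 was at 0.54 (adjusted p 0.308) and Tyms at 0.52 (adjusted p 0.356). Bub1 was then at 0.46 (adjusted p 0.393) and Pcna at 0.39 (adjusted p 0.412). Mki67 was at 0.35 with all libraries and at 0.25 without that library.

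The kinase inhibitors and Myc showed no common direction. Cdkn1a, the inhibitor p21, had values of 3.08 to 6.88 RPKM (median 5.08) in normal 1,25D and 2.70 to 6.32 RPKM (median 3.22) in normal vehicle libraries, a change of 0.36 (SE 0.27; adjusted p 0.749), and it was at -0.02 (SE 0.27) for 1,25D on the rescue diet. Cdkn1b was at 0.03 (SE 0.17) and -0.27 (SE 0.17) for 1,25D on the normal and the rescue diet, and at -0.28 (SE 0.17) for the rescue against the normal diet after 1,25D. Myc, a transcription factor that promotes growth and cell cycle entry, was at 0.15 (SE 0.26) and 0.13 (SE 0.26) for 1,25D on the normal and the rescue diet. Its diet differences were -0.10 (SE 0.26) after 1,25D and -0.07 (SE 0.26) under vehicle. The groups overlapped for all 3 genes.

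Beyond the 41 genes, 120 other genes in lists of DNA replication, mitosis and cell cycle control were examined, of which 119 were tested. None passed the test in any of the 7 comparisons. Without normal vehicle replicate 6, 7 of the 41 other mitosis genes passed for 1,25D on the normal diet, where 1.99% of all genes passed. With array weights 22 of these 41 passed for diet after 1,25D, where 6.43% of all genes passed. For 1,25D on the normal diet, the 41 other mitosis genes had a median of -0.29, with 39 below 0, the 41 other replication genes a median of 0.04, and the 37 tested genes of cell cycle control a median of 0.04. For the rescue against the normal diet after 1,25D, the medians were 0.45, 0.34 and 0.16 in the same order. Ube2c, which feeds the ubiquitin ligase that ends mitosis, lay between 9.48 and 12.7 RPKM (median 12.0) in normal 1,25D and between 9.12 and 29.3 RPKM (median 21.4) in normal vehicle libraries, a change of -0.67 (adjusted p 0.113). Cdkn1c, the kinase inhibitor p57, lay between 1.40 and 3.24 RPKM (median 1.64) in normal 1,25D libraries. In normal vehicle libraries it lay between 0.672 and 1.17 RPKM (median 0.951), close to the filter of 0.5 RPKM. Its diet dependence was -0.83 (adjusted p 0.369), and its change for 1,25D on the normal diet was 0.68 (adjusted p 0.0697). Skp2, which marks Cdkn1b for degradation, was at 0.46 (adjusted p 0.0999), Anln, a ring protein of cytokinesis, at -0.51 (adjusted p 0.248), Gmnn, the inhibitor of Cdt1, at 0.29 (adjusted p 0.293) and Orc4, a subunit of the origin recognition complex, at 0.20 (adjusted p 0.51).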

How the data were processed

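RNA-seq libraries were made from ribosome-depleted total RNA of the duodenum with a directional kit, per the labels' protocols. Reads were aligned to mm9 with TopHat, per the submitters' processing notes; no counter or annotation is stated there. The authors deposited RPKM values per gene entry for each library, per the file headers, and entries that shared a symbol were summed (9 of the 41 genes had several). RPKM carries no counts. Ratios of low values between libraries gave relative depth only, so no count test was run and no interval for counting error is given. For 60.5% of pairs of libraries, the depth ratio was within 0.05 log2 of that from the estimate over all libraries together. Genes that reached an RPKM of 0.5 in 6 or more of the 24 libraries were tested with limma 3.58.1 (R 4.3.3) on log2(RPKM + 0.5), all libraries in 1 fit with a mean per group, empirical Bayes with an intensity trend, two-sided, and adjusted p-values by Benjamini-Hochberg over all genes tested. The fit was tested on simulated data with 200 changed genes. It recovered 66% of the changes of 1 on the log2 scale and 92% of those of 2, and it called 6 unchanged genes. Smaller changes, such as those of most of the 41 genes, were not simulated. The simulated noise was independent between genes, without shifts of a whole library. These rates therefore do not cover genes that vary together between libraries. Intervals are 95% intervals from the same model.

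Per comparison the 4 genes with the smallest p are described in full, Mki67, Pcna, Ccnd1, Cdkn1a and Myc are given as well known members, and of each other list the 2 genes with the smallest p. The 41 genes, the lists of other cell cycle genes, the markers (crypt stem cell, differentiated enterocyte, general epithelium, exocrine pancreas, smooth muscle, lymphocyte) and the tests were chosen with earlier results of these data known. The promoter words, the licensing minus mitosis difference and the omission of the deepest and shallowest libraries together were chosen after seeing the data. Other alternatives were pseudocounts of 0.1 and 1, other filters and scalings, array weights, no intensity trend, a replicate block, only the groups compared, and each library left out in turn. The titles give replicate numbers without saying whether they pair the libraries, and the main fit used no pairing. Deviations of same-numbered libraries correlated between -0.44 and 0.48, and at most 3 of 6 pairs of any 2 groups exceeded 0.1. So few pairs cannot exclude a pairing.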

Additional observations from a re-analysis of the deposited data

Results flagged for a closer look

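In 14 of 164 sets of 6 libraries (41 genes in 4 groups), the highest or lowest library lay far from the others by Dixon's criterion (gap over range above 0.625). At this cutoff, chance alone flags about 1 in 20 sets, so part of the 14 flags may be chance.

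Rescue 1,25D replicate 6 gave 4 of them. Rrm2 was at 78.6 RPKM there, against 21.3 to 26.7 RPKM in the 5 other libraries of the group. Cdk2 was at 4.01 RPKM (others 7.76 to 10.4), Bub1 at 5.56 RPKM (others 9.29 to 12.4) and Foxm1 at 2.09 RPKM (others 3.11 to 3.88).

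Normal vehicle replicate 6 was low for Cenpe, at 3.57 RPKM (others 10.1 to 15.9), and for Cdkn1b, at 11.5 RPKM (others 22.4 to 29.1). Normal 1,25D replicate 4 was low for Ccnd2, at 29.1 RPKM (others 49.2 to 64.9), and for Ccne1, at 0.983 RPKM (others 2.41 to 2.74). Normal 1,25D replicate 2 was low for Kif20a, at 4.10 RPKM (others 5.09 to 5.61), and for Cenpe, at 5.40 RPKM (others 7.04 to 7.95). Tk1, thymidine kinase, was at 3.46 RPKM in normal 1,25D replicate 6 (others 5.29 to 6.61) and at 11.0 RPKM in rescue vehicle replicate 6 (others 7.10 to 8.36). Foxm1 was at 5.61 RPKM in rescue vehicle replicate 6 (others 3.15 to 3.34). Ccnb1, cyclin B1, was at 16.6 RPKM in rescue vehicle replicate 2 (others 24.6 to 29.2).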

How the results depend on the processing

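The number of the 41 genes past the threshold stayed at 0 in every comparison except under array weights and when certain libraries were left out. With array weights, 1 gene passed for 1,25D on the normal diet (Cenpe, -0.76), 19 for the rescue against the normal diet after 1,25D and 1 for 1,25D over both diets (Cenpe, -0.51). Leaving out each library in turn gave 0 to 3 for 1,25D on the normal diet and 0 to 1 over both diets, the higher numbers without normal vehicle replicate 6. Leaving out the deepest and shallowest libraries together also removed normal vehicle replicate 6, the deepest. The numbers were then 3 and 1, with the same genes past the test. The replicate block left 0 of the 41 genes past the threshold in all 7 comparisons. Over all alternatives the median of the 41 genes lay between 0.34 and 0.52 for diet after 1,25D (0.43 as reported), 0.16 and 0.37 for diet under vehicle (0.33), -0.16 and 0.01 for 1,25D on the normal diet (-0.06) and -0.04 and 0.09 on the rescue diet (0.00). Quantile normalization moved the median of all genes to 0.00 for diet under vehicle and 0.01 after 1,25D, from 0.10 and 0.12, and gave the 41 genes medians of 0.20 and 0.35. The mitosis median for 1,25D on the rescue diet was -0.09, and 0.02 with array weights. Over all genes, the number past the threshold ranged from 11 to 90 for 1,25D on the rescue diet (29 as reported), 0 to 1287 for diet after 1,25D (2), 0 to 32 for diet dependence (1), 0 to 4 for diet under vehicle (0), 200 to 475 for 1,25D on the normal diet (368) and 208 to 470 over both diets (256). Fits on the compared groups alone give no value for the 3 comparisons that use all groups. The cause of these changes was not tested. Depth is known only in relative terms, which limits what can be said of low genes such as E2f1.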
